A study of Homo sapiens with 9 samples.

Results

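Genes whose products build or bind the cytoskeleton of neural cells were examined in hNT2 cells exposed to an organophosphorus compound during the first days of neuronal differentiation. The members were NES, TUBB3, MAP2, MAPT, GFAP, DCX, STMN2, NEFL, NEFM and INA. They were taken by gene symbol, and every array probe that carried one of these symbols was kept, which gave 13 probes of 10 genes out of 42405 probes of 34623 gene names. hNT2 is a human embryonal carcinoma line whose cells turn towards a neuronal fate in retinoic acid. All cultures, controls included, were kept for 4 days (96 h) in differentiation medium with 10 μM retinoic acid. Of the 9 one-colour Agilent arrays, 3 held RNA of control cultures, 3 of cultures given 1 μM paraoxon and 3 of cultures given 5 μM mipafox, with replicates lettered A, B and C. The labels call the replicates biological and the methods of the study call them technical, so the p-values measure the spread between these arrays, which may be technical. A culture without retinoic acid was not analysed here, and the values do not show what differentiation itself did to these genes.

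The cytoskeleton of a neural cell is built from microtubules, actin and intermediate filaments, and its composition changes as a progenitor becomes a neuron. Progenitors hold intermediate filaments of nestin and vimentin. Young neurons make class III beta-tubulin, doublecortin and stathmin-2, and neurofilament proteins and the microtubule-associated proteins MAP2 and tau accumulate as axons and dendrites grow. Astrocytes are recognised by filaments of GFAP.

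Each probe was a stretch of 60 bases, and its place decides which end of a transcript was measured. Positions are those of the array files on hg19. Short pieces are shown for NES, DCX and TUBB3, the first genes described, because the paired probes of NES and of DCX behaved differently and TUBB3 has a single probe. The NES probes lie on the minus strand at chr1:156638841-156638900 and chr1:156639422-156639481, and start at bases 5212 and 4631 of the transcript the files name. Their first 30 bases, and those of both DCX probes, are given 5′ to 3′ in the probe's own direction, with nothing in capitals. For TUBB3, whose probe lies on the plus strand at chr16:90002437-90002496, bases 31 to 60 are given, and the capitals mark AATAAA, the hexamer of the usual polyadenylation signal.
NES A_23_P103672: gcaaagggaatctcttgcctgctccatctc
NES A_33_P3358233: aagagtctgaccctgtttccttggagaggg
DCX A_23_P500328: ttcagaatcacatgtaatccaaagacagta
DCX A_33_P3345717: ctgtgagaatttgttttcaggtctgacacc
TUBB3 A_23_P77493: cggggatacttAATAAAtctattgctgtca

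The letters AATAAA, read on the probe's own strand only, were present in 3 of the 13 member probes (TUBB3, NEFL and NEFM) and in 2960 of all 42405 probes, or 6.98%. The probes of DCX lie on the minus strand at chrX:110537610-110537669 and chrX:110543973-110544032. MAP2 was measured at chr2:210598712-210598771, MAPT at chr17:44105489-44105548 and INA at chr10:105049985-105050044, all on the plus strand. GFAP was measured at chr17:42983315-42983374 and chr17:42987518-42987577 on the minus strand, and the places of STMN2, NEFL and NEFM are given with their values. All 13 probes carried a transcript that RefSeq lists for the same gene, while exon and UTR annotation of hg19 was not used here.

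Of the 2 slides, slide 1 carried all controls together with mipafox A, whereas mipafox B, mipafox C and all paraoxon arrays were on slide 2. No slide thus had both paraoxon and control, and this comparison and the slide cannot be told apart by the arrays of these treatments alone. The share of probes well above background ranged from 65.7% to 73.6% over the arrays. Values below are log2 of the processed signal minus the array's own 75th percentile of that signal, so a value of 0 is the array's 75th percentile. They compare treatments within a probe and give no order of abundance between genes. In RNA from whole cultures, fewer cells of a type and less RNA per cell cannot be told apart. The number of arrays limits the precision.

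No cytoskeleton marker that was tested differed from control past the threshold with either compound. Of the 10 member probes of 8 genes that could be tested, limma called 0 for paraoxon against control and 0 for mipafox against control, where a call needed a log2 difference beyond 1 with an adjusted p under 0.05. Over all 29134 probes tested, 0% were called in each comparison. At an unadjusted p under 0.05 the count was again 0 of 10 for paraoxon, where 13.3% of all probes passed, and 0 of 10 for mipafox, where 6.96% passed. The smallest adjusted p of a member probe (limma, Benjamini-Hochberg) was 0.483 with paraoxon and 0.826 with mipafox, both at the second NES probe. The doses of the compounds differ and both comparisons use the same 3 control arrays, so their values are given side by side and are not set against each other.

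A missed threshold does not show that levels were equal, and the intervals give what could have been seen. For 8 of the 10 member probes the 95% interval of the difference lay between -1 and 1 with paraoxon, against 77.5% of all probes tested. With mipafox it was also 8 of 10, against 82.2% of all probes. The exceptions in both comparisons were the second probes of NES and of DCX, which are the only member probes spotted once on an array instead of 2 times. For the 8 probes spotted 2 times, a doubling or halving of the signal was outside the interval in both comparisons. With slide as a block this held for all 8 of these probes with mipafox but for 6 of 8 with paraoxon, where the intervals of NEFL (0.20 to 1.27) and MAP2 (-0.08 to 1.22) reached past 1.

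**Figure D1:**
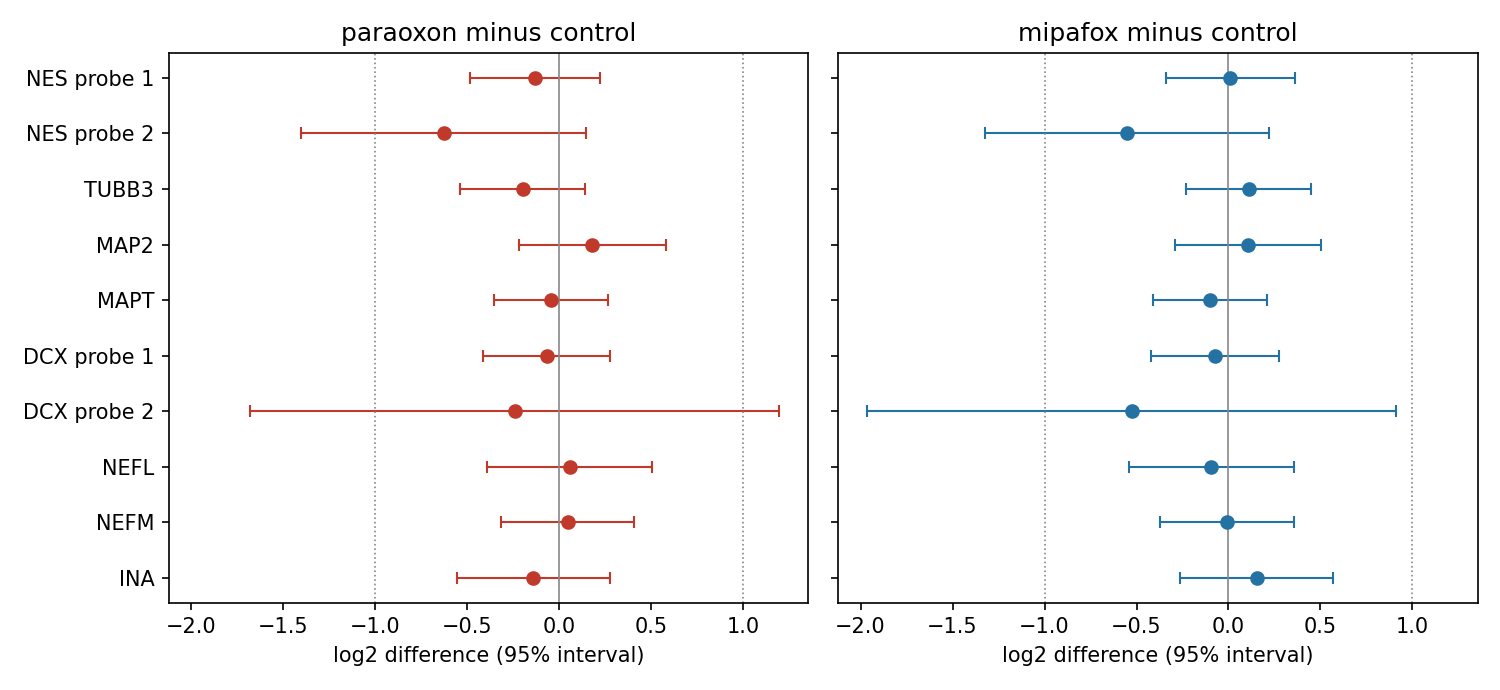
Difference of each tested member probe from control on the log2 scale (x axis) for paraoxon (left, red) and mipafox (right, blue), with 95% intervals from limma over 9 arrays; dotted lines mark -1 and 1. All 20 intervals span 0, and those of NES probe 2 and DCX probe 2 reach past -1 in both panels.

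NES encodes nestin, the intermediate filament protein of neural progenitors, and its 2 probes gave different pictures. The first probe, A_23_P103672, read in replicates A, B and C, in this order here and in the rest of the text, 4.48, 4.00 and 4.03 in control cultures, 4.06, 4.00 and 4.05 with paraoxon and 4.24, 4.22 and 4.08 with mipafox. Control A was the highest of all arrays, and both exposed groups overlapped the controls. Paraoxon differed from control by -0.13 (SE 0.16, 95% interval -0.49 to 0.22, limma adjusted p = 0.795). Mipafox differed by 0.01 (SE 0.16, interval -0.34 to 0.36, adjusted p = 0.998). The sign of these differences was not settled. Without control A the paraoxon difference was 0.02, and without control B the mipafox difference was -0.08.

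At the second NES probe, A_33_P3358233, the control arrays read 2.31, 2.23 and 2.25, within 0.0414 (SD, n = 3). The paraoxon arrays read 2.02, 2.17 and 0.71, and the mipafox arrays 2.02, 1.58 and 1.52. Every exposed array was below every control array, with paraoxon C far below the others. The difference was -0.63 with paraoxon (SE 0.34, interval -1.40 to 0.14, limma adjusted p = 0.483), a ratio of 0.647 to control. It was -0.55 with mipafox (SE 0.34, interval -1.33 to 0.22, adjusted p = 0.826), a ratio of 0.682. Groups that did not overlap, with the exposed arrays lower, were seen at 11.1% of all probes with paraoxon and 6.46% with mipafox. The paraoxon value rested on 1 array: without paraoxon C it was -0.17, and without paraoxon B it was -0.90. The mipafox arrays lay on both slides, with mipafox A alone on slide 1. Slide and scatter between single arrays thus cannot be told apart here. On slide 1 mipafox A was 0.24 below the control mean, and mipafox B and C on slide 2 were on average 0.47 below mipafox A. With slide as a block the difference became -0.16 (SE 0.63) with paraoxon and -0.24 (SE 0.49) with mipafox.

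DCX encodes doublecortin, which binds microtubules in migrating young neurons. Its first probe, A_23_P500328, gave -1.88, -1.89 and -2.23 in control cultures, -2.20, -2.11 and -1.91 on the paraoxon arrays and -2.00, -2.02 and -2.21 on the mipafox arrays. All 9 values lay within 0.36, with the treatments interleaved. Paraoxon and mipafox both differed from control by -0.07 (SE 0.15 for each, intervals -0.42 to 0.28 and -0.42 to 0.27, limma adjusted p = 0.907 and 0.971).

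The second DCX probe, A_33_P3345717, was well above background on all 9 arrays and yet scattered widely. It gave -3.24, -2.99 and -2.50 on the control arrays, -3.81, -1.76 and -3.89 on the paraoxon arrays and -3.87, -4.21 and -2.22 on the mipafox arrays. In each exposed group 1 array was above every control and the other two were below every control. The differences were -0.24 with paraoxon (SE 0.64, interval -1.68 to 1.20, adjusted p = 0.925) and -0.53 with mipafox (SE 0.64, interval -1.96 to 0.91, adjusted p = 0.942). Its arrays spanned 2.45 on the log2 scale, while those of the first DCX probe spanned 0.36. Over the 9 arrays the 2 DCX probes had a Pearson r of -0.42, and the 2 NES probes one of 0.18, given as descriptions of arrays that share slides and controls.

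**Figure D2:**
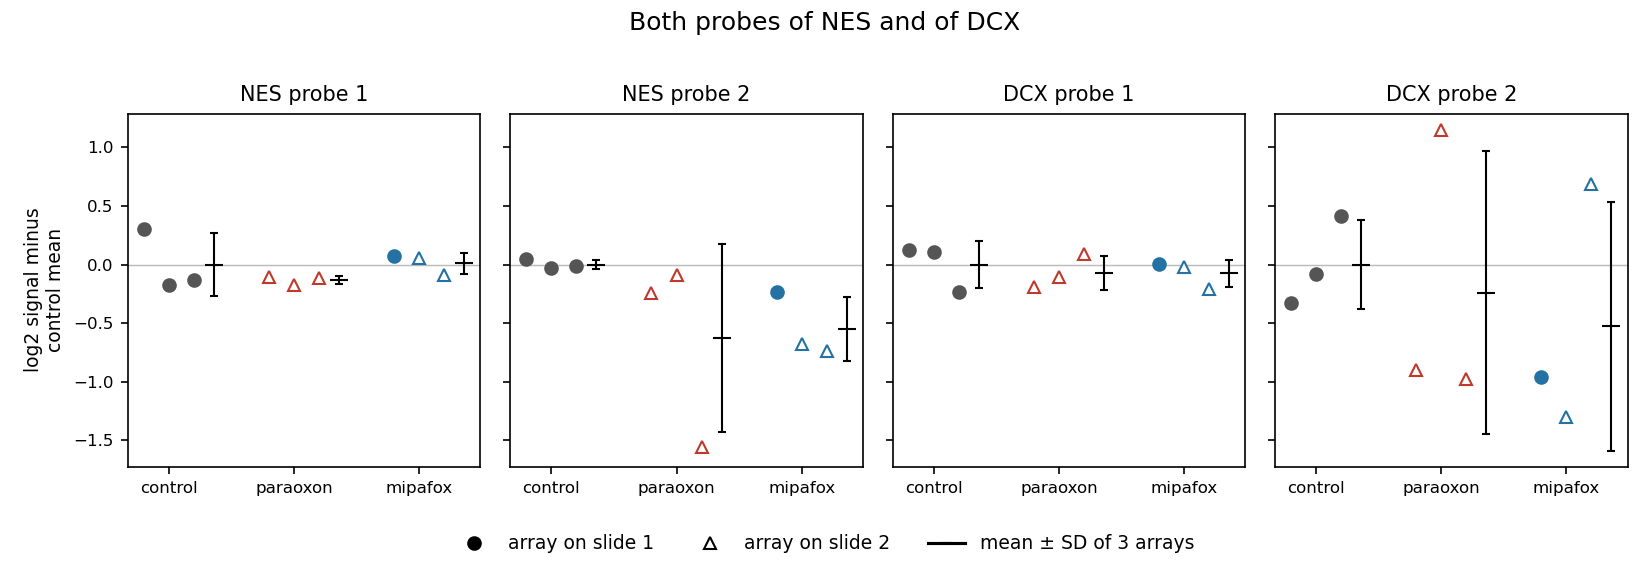
Log2 signal minus the probe's control mean (y axis, same scale in each panel) on every array for both probes of NES and of DCX; filled circles are arrays of slide 1, open triangles arrays of slide 2, and black bars the mean ± SD of 3 arrays. At NES probe 2 all 6 exposed arrays are below the controls, with paraoxon C the lowest at 0.71 before centring; at DCX probe 2 the arrays of each exposed group lie on both sides of the controls.

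TUBB3 encodes class III beta-tubulin, the tubulin by which young neurons are usually stained. Its probe read 3.64, 3.22 and 3.28 in control cultures, 3.05, 3.29 and 3.20 on the paraoxon arrays and 3.45, 3.49 and 3.53 on the mipafox arrays. The mipafox arrays lay close together, between the highest control and the other two controls, and the paraoxon arrays overlapped the lower controls. The difference was -0.20 with paraoxon (SE 0.15, interval -0.54 to 0.14, limma adjusted p = 0.638) and 0.11 with mipafox (SE 0.15, interval -0.23 to 0.45, adjusted p = 0.955). Within slide 2 the paraoxon arrays were on average 0.33 below mipafox B and C, at unequal doses. On slide 1 mipafox A was 0.07 above the control mean.

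Of the microtubule-associated proteins, MAP2 is found in dendrites and cell bodies. Its probe gave 0.98, 1.03 and 0.86 on the control arrays, 1.03, 1.33 and 1.06 on the paraoxon arrays and 1.33, 1.14 and 0.73 on the mipafox arrays. Paraoxon A was just below control B, so these groups overlapped by a narrow margin, and mipafox C was the lowest of all arrays. The differences were 0.18 with paraoxon (SE 0.18, interval -0.22 to 0.58, limma adjusted p = 0.742) and 0.11 with mipafox (SE 0.18, interval -0.29 to 0.50, adjusted p = 0.968).

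MAPT encodes tau, which binds microtubules mainly in axons. The control arrays gave -2.26, -2.23 and -2.27, the paraoxon arrays -2.29, -2.33 and -2.28 and the mipafox arrays -2.27, -2.21 and -2.58. All paraoxon arrays were below all control arrays, but by very little, and mipafox C alone stood apart. Paraoxon differed from control by -0.05 (SE 0.14, interval -0.36 to 0.26, limma adjusted p = 0.935) and mipafox by -0.10 (SE 0.14, interval -0.41 to 0.21, adjusted p = 0.955). MAPT and the second NES probe were the 2 of 10 member probes whose paraoxon and control arrays did not overlap, where 23.4% of all probes did not. With mipafox it was the second NES probe alone, 1 of 10, where 11.8% of all probes did not.

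STMN2 encodes stathmin-2, a tubulin-binding protein of growing axons. Its probe lies at chr8:80577162-80577221 on the plus strand. Its spots were well above background in 3 of 18 cases, 1 of them on control B and 2 on mipafox B. The probe was therefore not tested, and its processed signal ran from 2.47 to 15.8 over the arrays. The lowest signal of any spot well above background ran from 8.31 to 13.7 over the arrays. No treatment had the probe well above background on all of its arrays, and no difference between treatments is given.

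The neurofilament light and medium chains, NEFL and NEFM, and alpha-internexin, INA, form the intermediate filaments of neurons. NEFL was measured at chr8:24808478-24808537 on the minus strand and NEFM at chr8:24776547-24776606 on the plus strand. NEFL gave 0.28, 0.43 and 0.41 on the control arrays, 0.37, 0.39 and 0.52 on the paraoxon arrays and 0.73, 0.18 and -0.07 on the mipafox arrays. NEFM gave 0.19, 0.08 and 0.08 on the control arrays, 0.10, 0.11 and 0.27 on the paraoxon arrays and 0.32, 0.20 and -0.20 on the mipafox arrays. For both genes mipafox A was the highest and mipafox C the lowest of the 9 arrays, and the paraoxon arrays overlapped the controls. NEFL differed from control by 0.06 with paraoxon (SE 0.20, interval -0.39 to 0.50, limma adjusted p = 0.948) and by -0.09 with mipafox (SE 0.20, interval -0.54 to 0.35, adjusted p = 0.973). NEFM differed by 0.04 with paraoxon (SE 0.16, interval -0.32 to 0.41, adjusted p = 0.949) and by -0.01 with mipafox (SE 0.16, interval -0.37 to 0.35, adjusted p = 0.998). Without mipafox C the mipafox differences were 0.08 for NEFL and 0.15 for NEFM. The genes are neighbours, with 0 protein-coding genes between them in RefSeq.

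For INA the control arrays read 0.36, 0.22 and 0.04, the paraoxon arrays 0.03, -0.21 and 0.39 and the mipafox arrays 0.50, 0.43 and 0.16. Paraoxon C was above every control and the other paraoxon arrays were below them, and of the mipafox arrays mipafox C lay within the controls and the other two above them. The difference was -0.14 with paraoxon (SE 0.18, interval -0.56 to 0.28, limma adjusted p = 0.822) and 0.15 with mipafox (SE 0.18, interval -0.26 to 0.57, adjusted p = 0.941).

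GFAP, the astrocyte filament protein, was not well above background on any array. At each of its 2 probes 0 of 18 spots were well above background. The processed signal ran from 2.01 to 5.10 at A_23_P66593 and from 1.74 to 8.80 at A_33_P3335895. Differences between treatments at such signals have no measured size on either side.

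**Figure D3:**
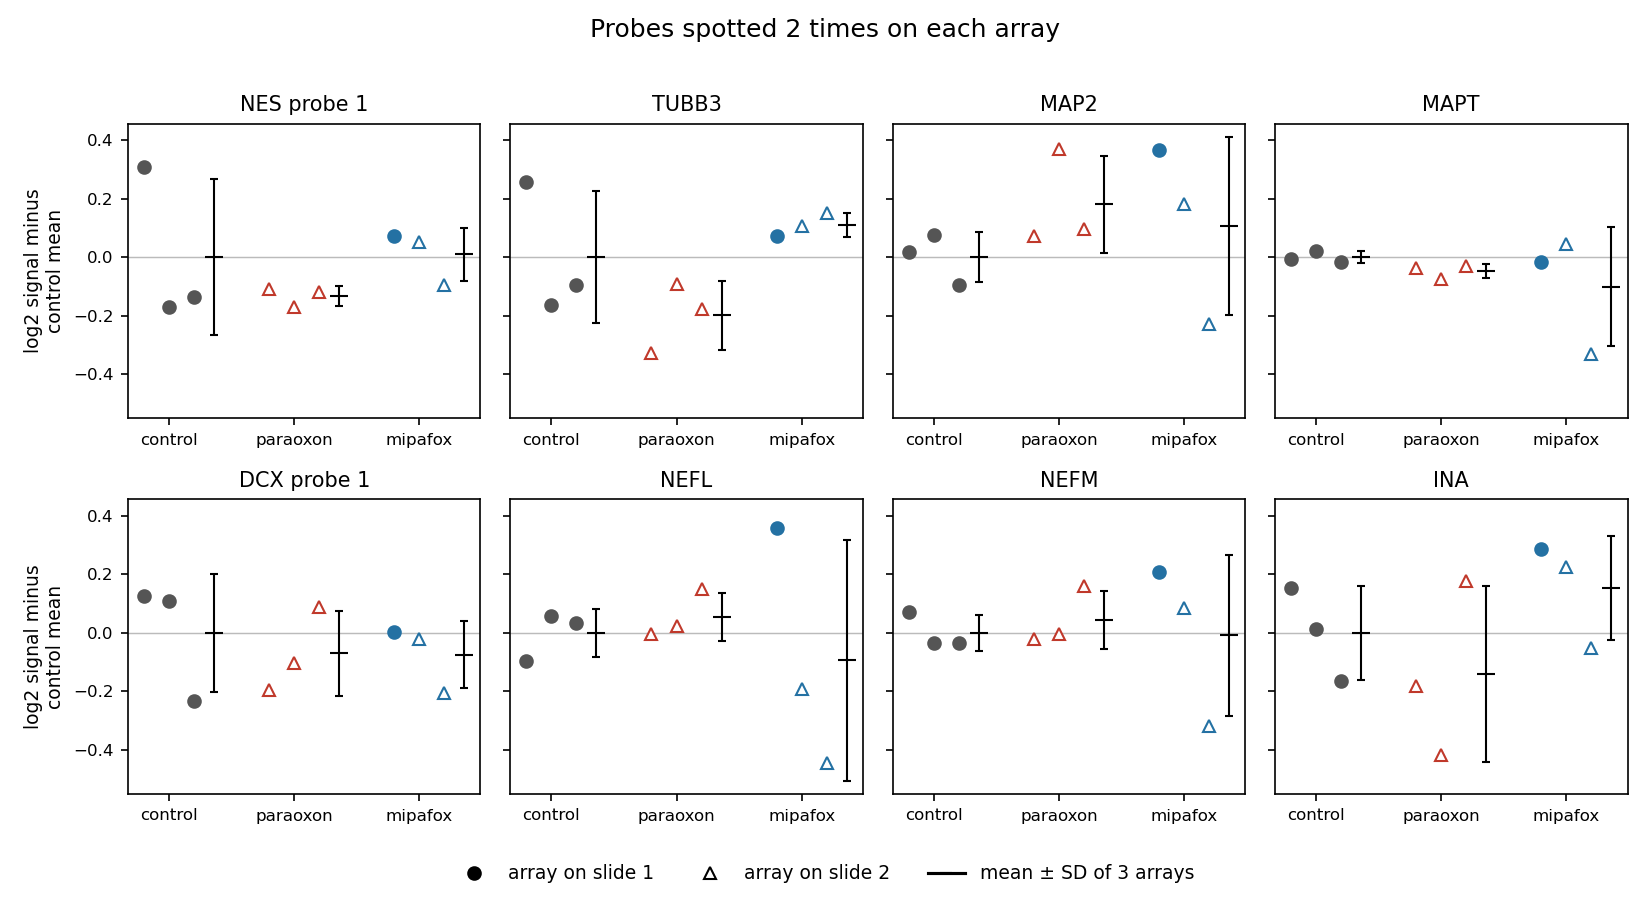
Log2 signal minus the probe's control mean (y axis, same scale in each panel) on every array for the 8 tested member probes spotted 2 times; filled circles are arrays of slide 1, open triangles arrays of slide 2, and black bars the mean ± SD of 3 arrays. Mipafox C is the lowest array for MAP2, MAPT, NEFL and NEFM, and the exposed arrays overlap the controls in every panel except those of paraoxon for MAPT.

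Taken over the members, the differences were small and ran both ways. With paraoxon 7 of 10 were below control, where 48.1% of all probes were, and the median difference was -0.10 (all probes 0.01). With mipafox 6 of 10 were below control, where 49.8% of all probes were, and the median was -0.04 (all probes 0.00). The median size of a difference without its sign was 0.14 with paraoxon and 0.10 with mipafox, against 0.19 and 0.15 over all probes.

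Most markers had a low spread between the arrays of one treatment. MAPT had a within-treatment SD of 0.118, larger than at 7.43% of probes tested, and TUBB3 one of 0.149, larger than at 16.1%. The median over all probes tested was 0.250. NEFL, at 0.247, lay near that median. The second probes stood apart from the first ones: 0.492 against 0.164 for NES and 0.954 against 0.158 for DCX, the last larger than at 98.2% of probes. Over all probes tested, those spotted once had a median SD of 0.264 and those spotted 2 times one of 0.216. Whether single spotting had a part in the spread of the second probes was not tested.

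**Figure D4:**
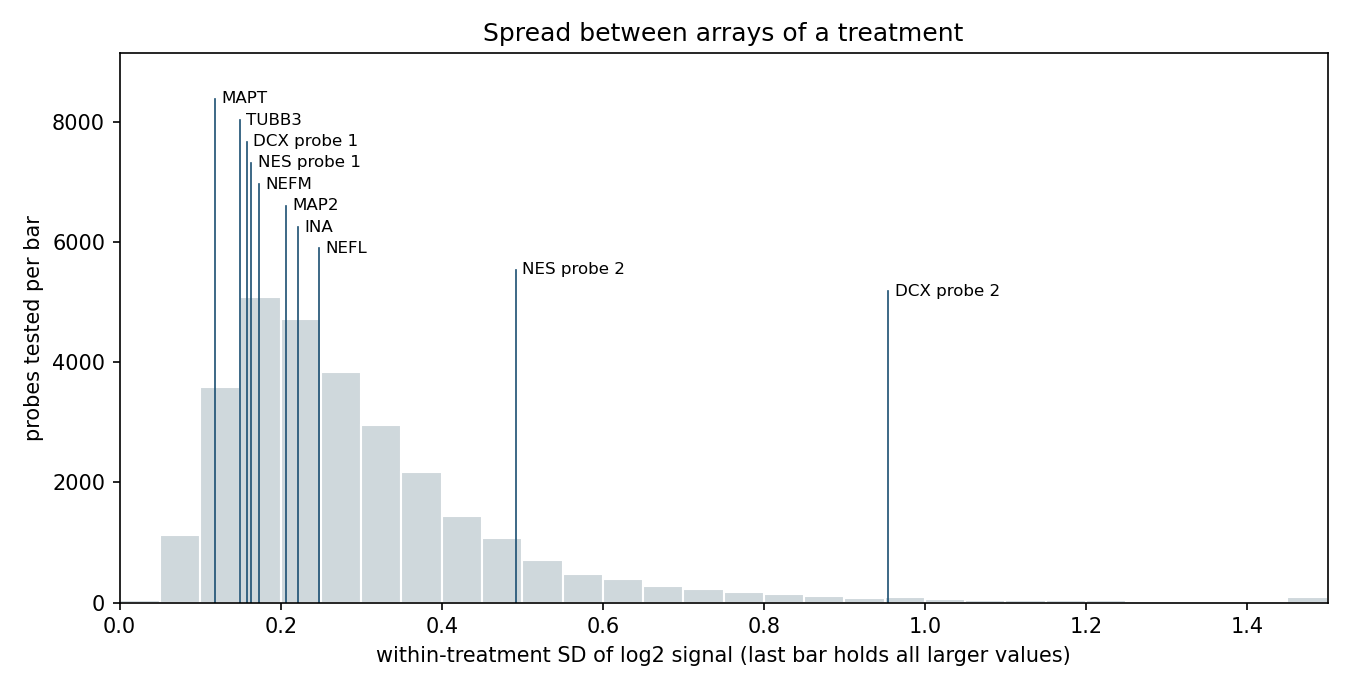
Number of probes tested (y axis) by their within-treatment SD of log2 signal (x axis), with a line at each of the 10 tested member probes; line heights serve the labels only. The 8 probes spotted 2 times lie between 0.118 (MAPT) and 0.247 (NEFL), and NES probe 2 and DCX probe 2 at 0.492 and 0.954.

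Several values moved when slide entered the fit as a block, and among the member probes those of NEFL and of the second DCX probe moved furthest. NEFL then differed from control by 0.73 with paraoxon (SE 0.23, unadjusted p = 0.0130, limma adjusted p = 0.613) and by 0.36 with mipafox (SE 0.18, adjusted p = 0.850). MAP2 differed by 0.57 (SE 0.28) and 0.37 (SE 0.22), and NEFM by 0.37 (SE 0.26) and 0.21 (SE 0.20). These values rest on 1 array, because in this fit the mipafox difference is mipafox A minus the controls, and the paraoxon difference adds to it the paraoxon arrays minus mipafox B and C. For NEFL the steps were 0.36 above the controls for mipafox A on slide 1, 0.37 above mipafox B and C for paraoxon on slide 2, and -0.68 for mipafox B and C minus mipafox A. NEFL with paraoxon was the only member value at an unadjusted p under 0.05 in this fit, 1 of 10, where 8.02% of all probes passed. TUBB3 differed by -0.26 (SE 0.27) with paraoxon and 0.07 (SE 0.21) with mipafox in the same fit, and the second DCX probe by -0.90 (SE 1.20) and -0.96 (SE 0.94). Whether slide itself had a part in these values was not tested.

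**Figure D5:**
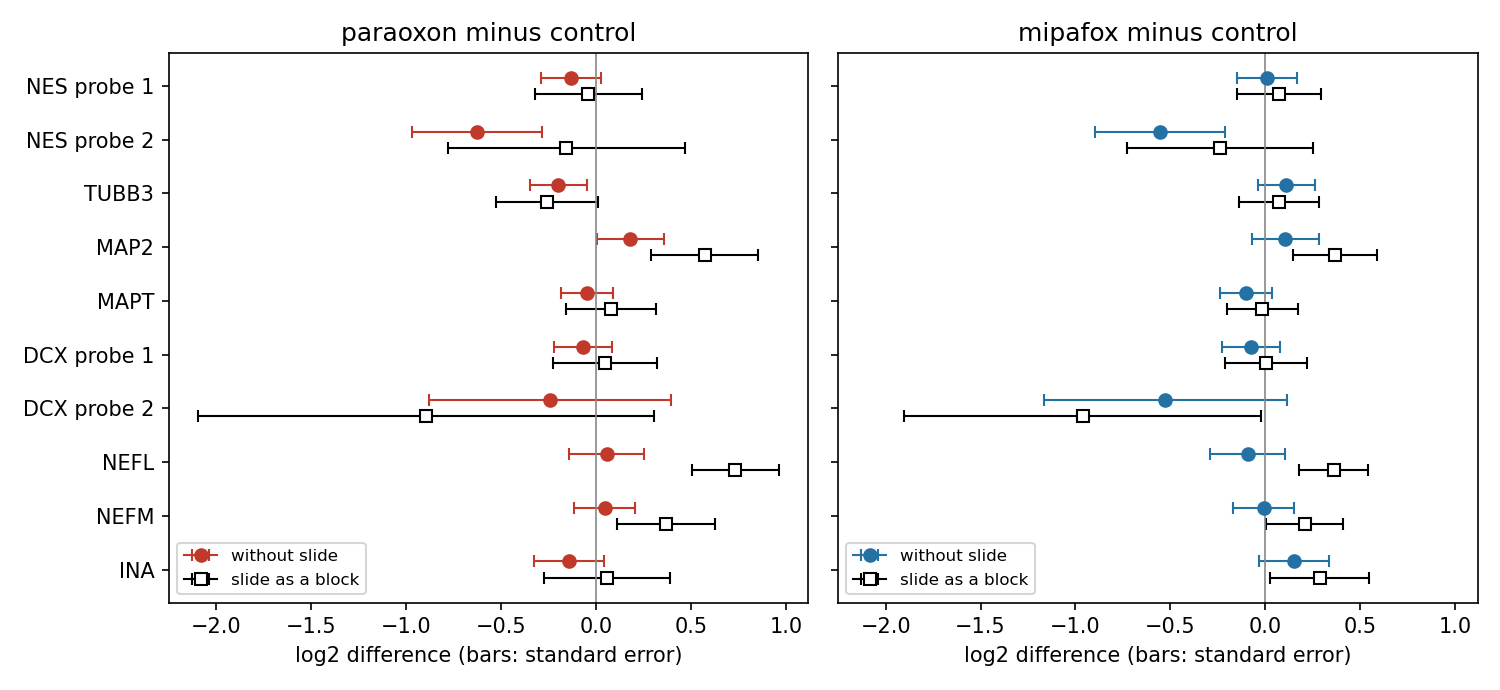
Log2 difference from control (x axis, bars: standard error) of each tested member probe without slide (coloured circles) and with slide as a block (open squares), for paraoxon (left) and mipafox (right). With the block NEFL moved from 0.06 to 0.73 with paraoxon and from -0.09 to 0.36 with mipafox.

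Member probes did not follow one common course over the arrays. Over the 45 pairs of tested member probes the Pearson r over 9 arrays had a median of 0.20 and ran from -0.76 to 0.80, with 30 pairs above 0. The highest was that of NEFL and NEFM, 0.80, with a Spearman rho of 0.45. Without the 2 arrays farthest from the median it was -0.04, so it rested on mipafox A and mipafox C. Among 19405 probes of other genes that were well above background on all arrays, the ones most like the first NES probe were FBXW5 (r = 0.97), SLC15A3 (0.97) and C10orf47 (0.96). For TUBB3 they were RGS16 (0.96), DPYSL5 (0.94) and H19 (0.94), out of 19406. For the first DCX probe they were the ribosomal protein genes RPL26 (0.90) and RPL19 (0.89), and DAB1 (0.89). These were the highest of so many correlations over arrays that share slides and controls, and they are a description.

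Lists of other tubulin, microtubule-binding and intermediate filament genes gave 0 calls as well. Of 12 other tubulin genes on the array, 11 were well above background on all 9 arrays, and TUBB1, the tubulin of platelets, on none. At their 18 probes tested, 14 were below control with paraoxon (median difference -0.21), where 48.1% of all probes were, and 11 with mipafox (median -0.09), where 49.8% were. The mean log2 value over these probes ran from 2.89 to 3.08 on the control arrays, from 2.63 to 2.86 with paraoxon and from 2.84 to 3.01 with mipafox, so that every paraoxon array was below every control. No slide held both paraoxon and control arrays, and this mean was not fitted with slide as a block. At an unadjusted p under 0.05, TUBA4A was higher with paraoxon (0.46, limma adjusted p = 0.174) and with mipafox (0.32, adjusted p = 0.696), while TUBA1A (-0.52, adjusted p = 0.293) and TUBA1C (-0.53, adjusted p = 0.319) were lower with paraoxon. That is 3 of 18 probes with paraoxon, or 16.7%, where 13.3% of all probes passed, and 1 of 18 with mipafox, or 5.56%, where 6.96% passed. TUBA4A, TUBA1A and TUBA1C are alpha-tubulin genes of closely related sequence, and they and the list genes named in the next sentences were picked after their values were seen.

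All 18 genes of microtubule-binding proteins and tubulin regulators were detected on every array. Of their 34 probes tested, 21 were below control with paraoxon (median -0.06) and 19 with mipafox (median -0.02). An unadjusted p under 0.05 was reached at 1 probe each of MAP4 (-0.87, adjusted p = 0.139), MAP1B (-0.60, adjusted p = 0.163) and DPYSL5 (-0.73, adjusted p = 0.236) with paraoxon, and at the same MAP1B probe with mipafox (-0.58, adjusted p = 0.473). That is 3 of 34 probes with paraoxon, or 8.82%, where 13.3% of all probes passed, and 1 of 34 with mipafox, or 2.94%, where 6.96% passed. MAP1B is an early microtubule-associated protein of growing axons, and its brightest probe, at chr5:71504756-71504815, did not pass: it differed by 0.05 (SE 0.21) with paraoxon and by -0.20 (SE 0.21) with mipafox. STMN1, the stathmin of dividing cells, differed by -0.08 (SE 0.13) and -0.13 (SE 0.13) at its brightest probe.

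All 11 other intermediate filament genes, among them DES, which also stands in the endoderm and mesoderm list below, were detected. Of their 17 probes tested, 9 were below control with paraoxon (median -0.07) and 5 with mipafox (median 0.05). VIM encodes vimentin, the filament partner of nestin in progenitors. It differed by -0.22 with paraoxon (SE 0.14, limma adjusted p = 0.563) and by -0.36 with mipafox (SE 0.14, unadjusted p = 0.0290, adjusted p = 0.651). LMNB1, a nuclear lamina gene, was higher at an unadjusted p under 0.05 with mipafox (0.37, adjusted p = 0.692), and LMNA, another, was lower with paraoxon (-0.47, adjusted p = 0.277). With VIM that is 2 of 17 probes with mipafox, or 11.8%, and 1 of 17 with paraoxon, or 5.88%, beside the same 6.96% and 13.3% of all probes.

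The labelled cell type was set against its markers. All 8 embryonal carcinoma genes, POU5F1, NANOG, LIN28A, DPPA4, TDGF1, SALL4, ZFP42 and DNMT3B, were detected on all 9 arrays, with a mean log2 value over the probes tested of 1.64 to 1.87 on the control arrays, 1.60 to 1.75 with paraoxon and 1.67 to 1.92 with mipafox. Of the neural progenitor genes 6 of 7 were detected on all arrays, of the other neuron genes 7 of 10, and of the astrocyte and oligodendrocyte genes 8 of 9. Counted by probe and not by gene, 26325 of all 42405 probes were well above background on every array. Counts of detected genes thus do not by themselves tell cell types apart. The list means were -0.97 to -0.84, -0.88 to -0.74 and -0.84 to -0.82 for progenitor genes and -2.36 to -2.15, -2.47 to -2.25 and -2.35 to -2.16 for neuron genes, in the order control, paraoxon and mipafox. For astrocyte and oligodendrocyte genes they were -2.99 to -2.93, -2.91 to -2.85 and -2.93 to -2.84. Of the endoderm and mesoderm genes 5 of 9 were detected on all arrays, with list means of -1.36 to -1.12, -1.42 to -1.04 and -1.25 to -0.97, and T, the early mesoderm gene, on none. All list means leave out probes that were not tested, and they give no order of abundance between the lists. None of these lists had a call. The ranges overlapped the control range except for astrocyte and oligodendrocyte genes with paraoxon and progenitor genes with mipafox, where all 3 exposed arrays were above the controls by a narrow margin. POU5F1, a gene of pluripotent cells, differed from control by -0.13 (SE 0.24) with paraoxon and by -0.14 (SE 0.24) with mipafox at its brightest probe, and by 0.74 (SE 0.26) and 0.44 (SE 0.20) with slide as a block. Its second probe differed by -0.49 with paraoxon (SE 0.20, unadjusted p = 0.0370, limma adjusted p = 0.333) and by -0.25 with mipafox (SE 0.20, adjusted p = 0.891). Of the 9 embryonal carcinoma probes tested, 6 were below control with paraoxon (median -0.11) and 3 with mipafox (median 0.06). Over all probes 48.1% and 49.8% were below control. With mipafox the POU5F1 probes thus ran against most of their list. The other probes of these lists at an unadjusted p under 0.05 were picked after their values were seen. With paraoxon this was 1 probe of PAX6 (0.47, limma adjusted p = 0.249). It was 1 of 8 progenitor probes, as POU5F1 was 1 of 9 in its list, where 13.3% of all probes passed. With mipafox they were 1 of 10 neuron probes, RBFOX3 (0.40, adjusted p = 0.626), and 1 of 9 astrocyte and oligodendrocyte probes, MBP (0.54, adjusted p = 0.578). Of all probes 6.96% passed with mipafox. RBFOX3 was higher, while 6 of the 10 neuron probes were below control with mipafox (median -0.04). The part of cell composition in the members' values was not tested.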

How the data were processed

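RNA of hNT2 cultures was measured on 9 one-colour Agilent arrays. The authors used Agilent Feature Extraction 10.5.1.1 (submitters' processing notes) to turn scans into spot intensities and deposited them as linear intensity (processed and mean signal), next to a matrix of log2 values of their own processing. For the comparisons the processed signal was set to log2 and lowered by the array's 75th percentile over the 58717 spots that were not controls. Spots flagged as outliers were then left out, and the mean was taken over the other spots of each probe. A probe counted as well above background on an array when at least as many of its spots passed as failed. Testing was limited to the 29134 probes that passed on all arrays of 1 treatment or more and had 2 or more values in each treatment. limma 3.58.1 (R 4.3.3) was fitted to the 9 arrays with a mean for each treatment, and p-values were adjusted by Benjamini-Hochberg over the probes tested. The test was tried on simulated data. Slides were taken from the array identifiers. Figures were drawn with matplotlib 3.10.9.

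The members and lists were chosen with earlier results of these data known. Named were every probe of the 10 members; VIM, STMN1, MAP1B and POU5F1 at their brightest probe; list genes with an adjusted p under 0.05, of which there was none; and the 3 probes of other genes most like the brightest probe of NES, TUBB3 and DCX. Symbols were matched to RefSeq (GRCh38.p14), used for names and neighbours only. Alternatives covered normalization, background correction, the authors' values, the filter, blocks, arrays in the fit, array weights, outlier spots, thresholds and each array left out. Sequences are those of the array files, and protein sequences were not used here.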

Additional observations from a re-analysis of the deposited data

How the results depend on the processing

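None of the 10 tested member probes was called in either comparison under any of the alternatives, including an adjusted p under 0.1 with no fold limit. The probes of GFAP and STMN2 were left out of these counts under every setting, also without the filter on dim probes. The count at an unadjusted p under 0.05 moved from 0 to 1 for paraoxon with slide as a block (NEFL), and for mipafox to 1 in the fit of the mipafox and control arrays alone (the second NES probe; 6.94% of all probes passed) and to 3 with array weights (the second probes of NES and DCX, and TUBB3), where 37.2% of all probes passed. With 1 array left out it ran from 0 to 1 in each comparison, reaching 1 without paraoxon B for paraoxon (12.9% of all probes) and without paraoxon C for mipafox (8.31% of all probes), at the second NES probe both times. Over all probes, calls for paraoxon moved from 0 to 278 in the fit of paraoxon and control alone, 671 with array weights, 7 with normexp and 1 with slide as a block, and ran from 0 to 275 with 1 array left out. For mipafox they moved to 800 with array weights and 6 with slide as a block, and ran from 0 to 78. At an adjusted p under 0.1 and any fold change 364 probes passed for paraoxon. Whether the replicate letters pair the arrays was not settled. Deviations of same-letter arrays had a median correlation of 0.116 (-0.597 to 0.567), over 0.1 in 5 of 9 pairs. For arrays of different letters and treatments the median was 0.0201 (-0.587 to 0.661), over 0.1 in 7 of 18 pairs. A replicate block gave 0 calls and 0 member probes at an unadjusted p under 0.05 in both comparisons. Each treatment has every letter, so this block could change standard errors but not the differences themselves. Of 280 differences of member and other named probes under settings other than the leaving out of an array, 259 kept their direction and 21 turned. With the replicate block, both filter changes, treatment and control alone, or outlier spots kept, the estimates equalled those of the main fit. These settings therefore do not test direction, and all 21 turns came from the others.

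Differences that turned were, with slide as a block, for paraoxon MAPT to 0.080, the first DCX probe to 0.048, INA to 0.059 and POU5F1 to 0.74, and for mipafox the first DCX probe to 0.0042, NEFL to 0.36, NEFM to 0.21 and POU5F1 to 0.44. With the authors' values, MAPT became 0.031 and STMN1 0.18 for paraoxon, and MAPT 0.0015, the first DCX probe 0.0022, NEFM 0.00031 and STMN1 0.057 for mipafox. With array weights, the first NES probe became 0.013 and NEFL -0.030 for paraoxon, and MAPT 0.0010 and NEFM 0.096 for mipafox. With normexp NEFM became -0.0019 and STMN1 0.097 for paraoxon, and with quantile normalization the first NES probe became -0.014 for mipafox. With 1 array left out, the paraoxon differences that turned ran from -0.22 to 0.021 for the first NES probe, -0.94 to 0.13 for the second DCX probe, -0.012 to 0.080 for NEFM and -0.070 to 0.24 for MAP1B. For mipafox they ran from -0.075 to 0.16 for the first NES probe, -0.024 to 0.27 for MAP2, -0.17 to 0.015 for MAPT, -0.32 to 0.084 for NEFL, -0.12 to 0.15 for NEFM and -0.43 to 0.10 for POU5F1. The cause was not tested. With array weights VIM reached an adjusted p of 0.0398 for paraoxon and 0.0280 for mipafox, at differences of -0.35 and -0.39, under the fold limit; under the other settings its adjusted p for mipafox ran from 0.386 to 1.00. GFAP and, on most arrays, STMN2 were not well above background. Member probes spotted once had wide intervals, and slide was separable from treatment only through mipafox A.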
